A study of Eohaustorius estuarius with 16 samples.

Results

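The well-expressed contigs that were lower in cyfluthrin-exposed amphipods numbered 103, out of 6852 tested contigs and 8507 on the array. A contig is an assembled transcript sequence, and each had 1 probe design on the array. Members were chosen on the measured values themselves. In the authors' log2 value table, the cyfluthrin mean had to lie at least 1 log2 unit below the control mean, every cyfluthrin value below the control median and every control value above the cyfluthrin median. In addition, the control signal had to reach at least the median signal of its array. Testing was limited to contigs that 8 or more of the 16 arrays measured well above background. All 103 members met that on every array, as did 74.5% of the tested contigs. Among tested contigs with a control signal at or above the array median, 95.6% did. The group difference therefore chose the members, and the group values below are a description.

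The animals were Eohaustorius estuarius, a burrowing estuarine amphipod, taken as whole bodies after 10 days in sediment. Controls were kept in sediment treated with solvent only, and the exposed animals in sediment spiked with cyfluthrin at a nominal 1.6 µg/kg. RNA from 8 control and 8 cyfluthrin samples was labelled with Cy3 and hybridised in laboratory F of an interlaboratory study, with 1 array for each sample named in the labels. Cyfluthrin replicates 5 and 6 differed by a median of 0.134 log2 units over the members, against 0.285 to 0.806 for the other 27 pairs of cyfluthrin arrays, and were averaged to 1 sample, which left 7. The labels list them as separate samples, but the names of their 2 files carry the same sample number, which no other pair of cyfluthrin files does. Whether they are one RNA on 2 arrays is not known from the files used here. The labels give neither the number of animals in a sample nor separate containers, so any p-value measures only the spread between these samples.

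Cyfluthrin is a pyrethroid insecticide. Pyrethroids bind voltage-gated sodium channels in nerve membranes and delay their closing, which leads to repetitive firing and, at higher doses, paralysis, and crustaceans are among the most sensitive animals. The files used here pair no contig with a gene, so members are given by contig number, no role can be given to them, and the whole-body tissue could not be checked against marker genes. In a whole body, fewer cells of a type and less RNA per cell cannot be told apart.

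Signal quality differed between arrays. The 75th percentile of the log2 signal ran from 6.15 to 7.60 in controls and from 7.40 to 8.14 on the cyfluthrin arrays, so the groups overlapped only slightly. Each array was scaled to this percentile, and levels below are log2 units over it. The share of contigs well above background ran from 67.6% to 89.4% in controls and from 77.6% to 83.2% in cyfluthrin samples. Control replicate 7 had the lowest percentile and, with control replicate 8, the lowest share.

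The members fell by a median of 1.26 log2 units, or 2.40-fold, on this scale, with single contigs between -2.98 and -0.98. The median change over all tested contigs was -0.16, and over the 4252 tested contigs with a control signal at or above the array median it was -0.09. The standard error of a member's change was 0.26 at the median. In the value table that the rule used, 18 members fell by at least 1.5 and 4 by at least 2 log2 units. The limma fit over all tested contigs called 101 of the 103 lower at an adjusted p under 0.05, where 22.5% of tested contigs were called lower. The exceptions were contig_3566 (adjusted p = 0.0647) and contig_1158 (adjusted p = 0.102). Control and cyfluthrin values did not overlap for 45 members, beside 4.77% of tested contigs. In the value table the corresponding figures were 47 members and 2.54%. As the rule used this contrast, these counts describe the choice of members.

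**Figure D1:**
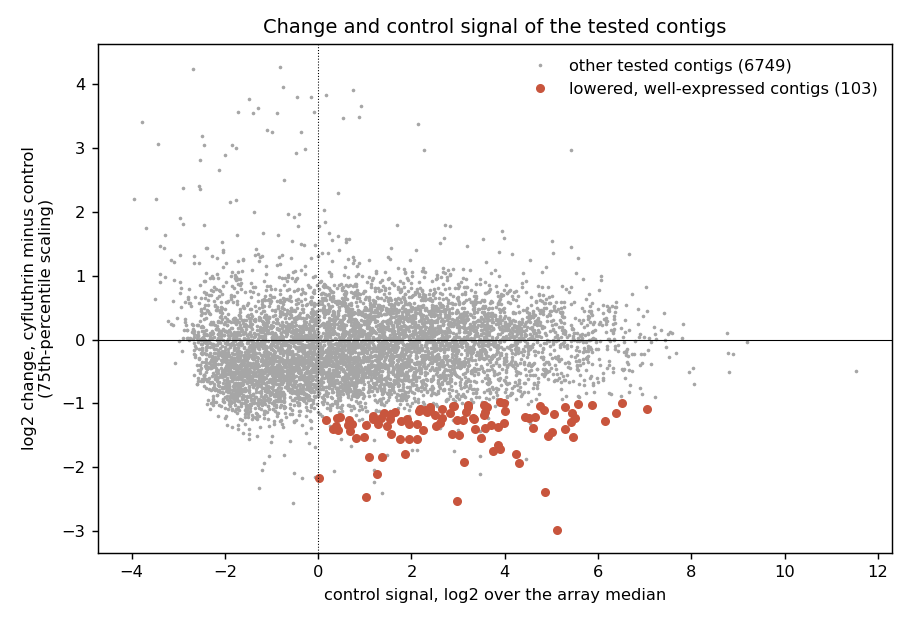
Each point is a tested contig, with its control signal in log2 units over the array median on the horizontal axis and its log2 change (cyfluthrin minus control, 75th-percentile scaling) on the vertical axis. The 103 lowered contigs, in red, lie to the right of the dotted line at 0, with changes between -2.98 and -0.98.

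The contig with the largest fall was contig_356. Its control values ran from 1.42 to 4.63 with a median of 3.01, and its cyfluthrin values from -1.24 to 1.21 with a median of 0.24. The highest cyfluthrin sample, replicate 4, lay just under the lowest control, replicate 6, so the groups did not overlap. The means of 3.04 ± 1.12 (SD, n = 8) and 0.07 ± 0.96 (SD, n = 7) differed by 7.87-fold.

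For contig_5494 the control values ran from -1.01 to 1.72 (median 1.15) and the cyfluthrin values from -2.29 to -0.71 (median -1.64). Control replicate 7 alone lay within the cyfluthrin range, the other 7 controls above it. The contig fell by 2.53 log2 units (SE 0.38), or 5.77-fold.

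Contig_327 separated the groups fully. Control values ran from 1.93 to 4.26 (median 2.83) and cyfluthrin values from -0.36 to 0.80 (median 0.52). It fell by 2.38 log2 units (SE 0.30), or 5.21-fold, and the spread was narrower in the cyfluthrin group (SD 0.42, n = 7) than in controls (SD 0.72, n = 8).

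The values of contig_6603 were the most scattered of the 5 contigs with the largest falls. Controls ran from -2.36 to 0.97 (median -1.33), with replicates 1 and 7 high, and cyfluthrin samples from -5.24 to -1.96 (median -3.32), with replicate 2 low and replicate 8 high. The groups overlapped, and the mean fell by 2.46 log2 units (SE 0.57). The change was -3.75 on slide 1 and -1.01 on slide 2. Duplicate spots of cyfluthrin replicate 2 differed by 1.28 log2 units, and without that array the change was -2.17.

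In contig_8058 controls ran from 0.61 to 3.44 (median 2.17) and cyfluthrin samples from -0.34 to 1.45 (median 0.34). Control replicate 7 was again the lowest control, and cyfluthrin replicate 2 the highest exposed sample, above that control. The mean fell by 1.94 log2 units (SE 0.37), or 3.83-fold. Contig_5494 and contig_8058 thus shared a low value in control replicate 7, a sample in which most other members were high.

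The smallest spread relative to the fall was found in contig_4929, contig_1428 and contig_1872. Contig_4929 had control values between -1.70 and -0.49 (median -0.83) and cyfluthrin values between -3.38 and -2.55 (median -2.73). All 8 controls lay above all 7 cyfluthrin samples, by a 3.59-fold difference of the means. Contig_1428 ran from -0.92 to -0.17 in controls and from -1.89 to -1.18 in cyfluthrin samples, again without overlap, and fell by 1.16 log2 units (SE 0.14). Contig_1872 ran from -2.99 to -0.88 in controls and from -4.91 to -3.84 in cyfluthrin samples. It fell by 2.16 log2 units (SE 0.26), and was also the member nearest to the level limit.

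**Figure D2:**
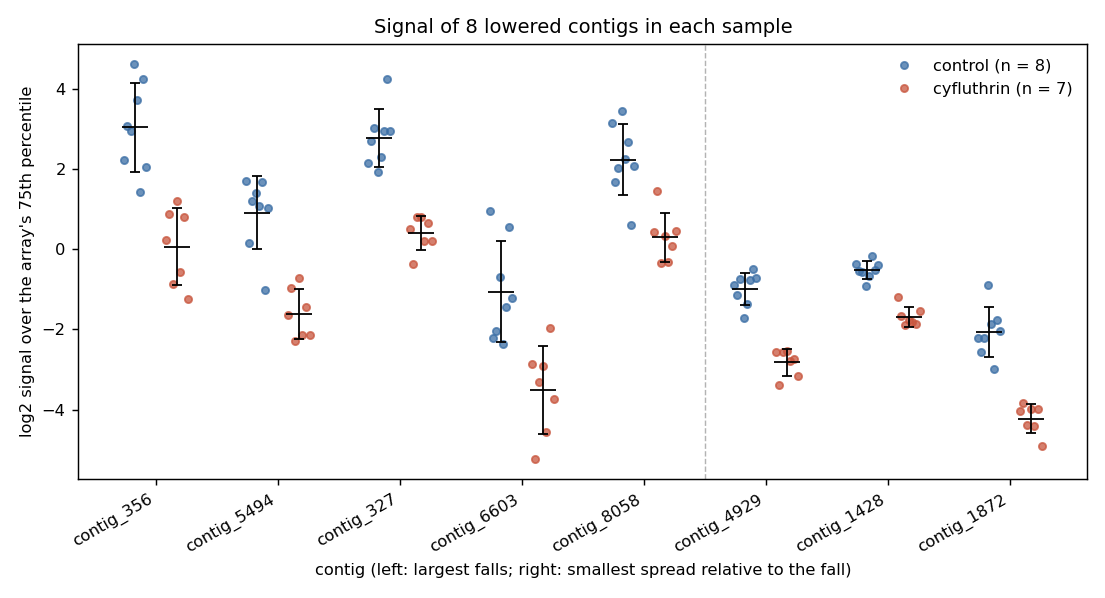
Log2 signal over the array's 75th percentile (vertical axis) of 8 lowered contigs in each sample, with points for samples and bars for the mean and SD of 8 control and 7 cyfluthrin samples. The 5 contigs left of the dashed line have the largest falls and the 3 on the right the smallest spread relative to the fall; the groups overlap in contig_5494, contig_6603 and contig_8058.

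The next 3 members were named for their bright control signal, which does not rank them by amount of RNA, since probes differ in their response. Contig_5468 lay between 4.53 and 5.40 in controls and between 3.50 and 4.24 in cyfluthrin samples, and its groups did not overlap. Its SD was 0.30 in controls and 0.29 in cyfluthrin samples. Contig_3528 ran from 3.70 to 5.37 in controls, with replicate 7 highest, and from 2.85 to 3.46 in cyfluthrin samples, again without overlap. In contig_796 the control range of 3.70 to 5.48 and the cyfluthrin range of 2.93 to 4.13 overlapped through cyfluthrin replicate 2. The changes of contig_5468, contig_3528 and contig_796 were -1.08, -1.15 and -0.99 log2 units.

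At the limits the choice turned on small differences. Just inside the limit of the fall were contig_1158 (-1.001 in the value table) and contig_1642 (-1.005), and just outside it were contig_5603 (-0.999) and contig_328 (-0.998). Control levels of contig_1872 and contig_1499 were 0.01 and 0.16 log2 units over the array median, and those of contig_5378 and contig_2790, just outside, -0.15 and -0.16. In all, 16 contigs met every criterion except the level. A further 43 met the limits of the fall and the level but not the separation of the groups.

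The gap between duplicate spots was not itself part of the rule. A bright spot on a control array could still raise the control mean and help a contig in. The members' count of disagreeing spots is thus not independent of their choice. Of the members, 76 had 2 spots on each array and 27 had 1, and 26.2% with a single spot compares with 26.1% of tested contigs. The SD between duplicate spots was 0.067 log2 units at the median, against within-group SDs between samples of 0.57 in controls and 0.42 in cyfluthrin samples. No spot of a member was saturated. In 8 of the 76, duplicates lay more than 1 log2 unit apart on at least 1 array (10.5%, beside 21.6% of the tested contigs with 2 or more spots and 5.64% of those at or above the array median).

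In contig_3566 and contig_1158 a single bright spot on control replicate 4 set the size of the change. The duplicates of contig_3566 read -1.57 and 7.66 there, 597-fold apart, while the other 7 controls lay between -1.34 and -0.92. Without that array its change went from -1.35 to -0.83. For contig_1158 the duplicates read 1.1 and 7.52, or 85.8-fold apart, and the change went from -1.02 to -0.62. These were also the contigs that the fit did not call. On the 75th-percentile scale, 100 members fell by at least 1 log2 unit with outlier-flagged spots dropped, and 99 with them kept. With all disagreeing values left out as well as flagged spots the count was 98, and the median change was -1.26 each time. Contig_2225 depended on the outlier flag of the scanner software, since its change was -1.23 without and -0.82 with a flagged spot of control replicate 1.

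Members varied together between samples of the same group. After the group means were removed, the correlation between 2 members over the 15 samples was 0.35 at the median, and 33.9% of the 5253 pairs exceeded 0.5. Among the 4247 contigs at or above the array median with a value in every sample, the median was 0.03 and the share 12.7%. All correlations share the same 15 arrays and their scaling, and are given as a description. Under quantile normalization the medians were 0.32 and 0.01. Without control replicate 7 they were 0.27 and 0.05.

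**Figure D3:**
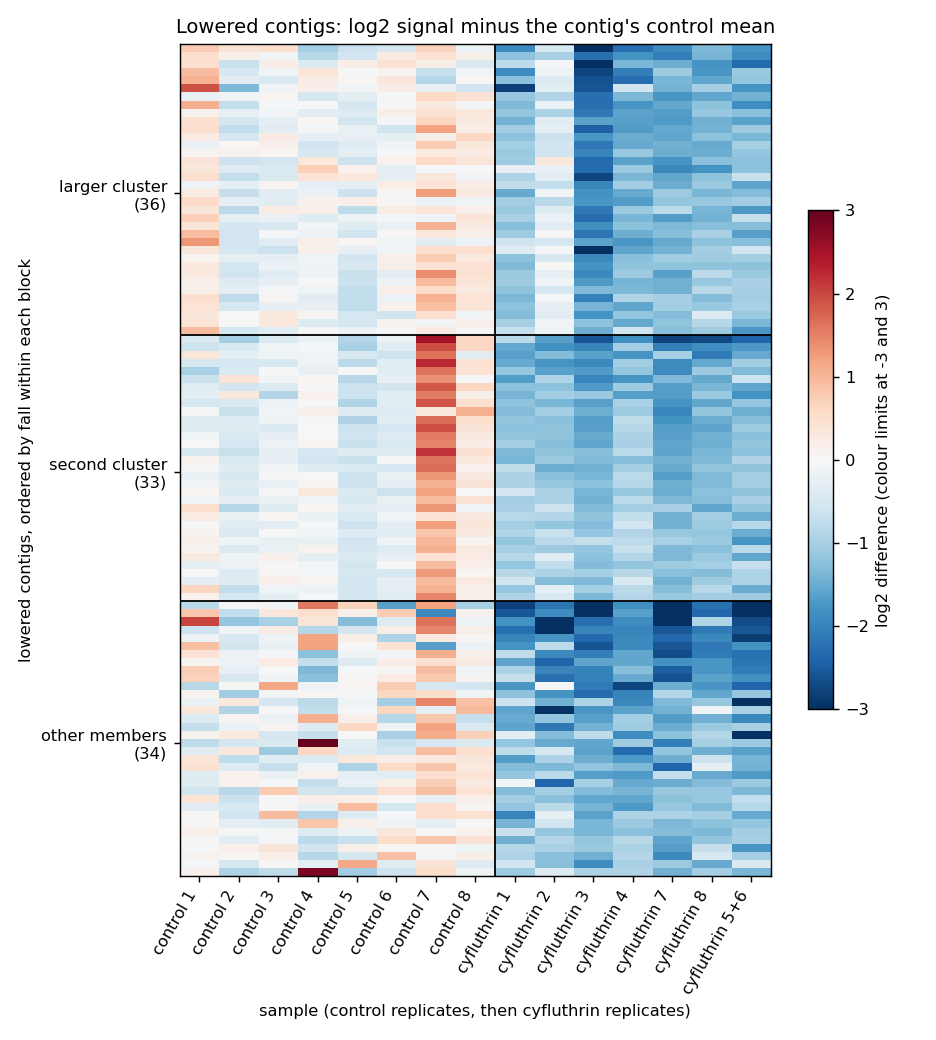
Each row is one of the 103 lowered contigs and each column a sample, with colour for the log2 signal minus the contig's control mean (limits -3 and 3). Control replicate 7 stands out in red through the second cluster of 33 contigs, and cyfluthrin replicate 2 is the palest exposed sample in the larger cluster of 36.

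Average-linkage clustering of these correlations, with the tree cut at 0.5, gave a larger cluster of 36 contigs and a second of 33. In the larger cluster, where the median correlation was 0.65, cyfluthrin replicate 2 was the highest exposed sample in all 36 contigs. It lay 0.95 log2 units above its group's mean at the median, while cyfluthrin replicate 3 lay at -0.79. The groups did not overlap in 7 of the 36, and the median change was -1.24, or -1.41 without replicate 2. Without that sample the median correlation in the cluster was 0.52. Clusters were built from these correlations, so high values within them and a shared extreme sample follow in part from the clustering. The adjacent contig_636 and contig_637 belonged to it.

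In the second cluster the median correlation was 0.78, and control replicate 7 was the highest control in 32 of 33 contigs. Its values lay 1.36 log2 units above the control mean at the median. In contig_5486, for example, control replicate 7 read 3.79, the next control 2.45 and the remaining controls 0.86 to 1.78, while the cyfluthrin samples ran from -0.22 to 0.81. The groups did not overlap in 23 of the 33. Without control replicate 7 the median change went from -1.22 to -1.02, and the correlation was 0.55. Limma then called all 33 lower, where 20.2% of tested contigs were called lower in the same fit. As the remaining samples also took part in the choice of members, this count too is a description. The bright contig_5468, contig_796 and contig_3528 all fell in this cluster. Between members of the first and second clusters the median correlation was 0.41.

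Smaller clusters followed other samples. In 8 contigs, among them contig_327, contig_4929 and contig_1428, control replicate 4 lay at -0.86 log2 units from the control mean at the median, and the median change was -1.79. In 6 contigs, among them contig_356, contig_1872, contig_1158 and contig_3566, control replicate 4 lay 1.39 above it. For contig_1158 and contig_3566 that is the array with the discordant spot, whereas the duplicates of contig_356 differed by no more than 0.22 on any array. In 4 contigs the averaged cyfluthrin replicates 5 and 6 lay at -1.06 from the mean of their group. A cluster of 3 and 9 others with 13 contigs in all made up the rest. The contigs closest to contig_356 in their deviations over the 15 samples were contig_1458 (r = 0.93) and contig_1872 (r = 0.84), both members, and contig_6453 (r = 0.83), which is not a member and changed by -0.79.

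Per sample, the median of the members relative to the control mean lay apart between the groups, which the choice of members largely sets. It ran from -0.43 in control replicate 2 to 0.76 in control replicate 7, and from -1.63 in cyfluthrin replicate 3 to -0.93 in cyfluthrin replicate 2. Control replicate 7 was the highest control for 65 members (63.1%, beside 29.6% of contigs at or above the array median). Its median deviation over those contigs was 0.09, against 0.76 over the members, and the latter was 0.76 under quantile normalization and in the value table too. A high value in 1 control raises the control mean, and so helped a contig to meet the limit of the fall. The share and the deviation for control replicate 7 are therefore in part set by the choice of members. The part of this sample's dim signal in the result was not tested. Cyfluthrin replicate 2 was the highest exposed sample for 52 members (50.5%, beside 32.4%), and its 75th percentile and share of contigs above background lay within the range of the other cyfluthrin arrays. The control SD exceeded the cyfluthrin SD in 67 members (65.0%, beside 58.7% of tested contigs). High single controls, which the rule favoured, also raise the control SD, so this count too is a description.

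Adjacent contig numbers were held by 4 pairs of members. Contig_2087 and contig_2088 moved closely together (r = 0.95 within groups) and changed by -1.91 and -1.79 log2 units. Contig_636 and contig_637 correlated at 0.75, contig_6187 and contig_6188 at 0.33, and contig_2026 and contig_2027 at -0.00. Over 2136 adjacent pairs of contigs at or above the array median the median correlation was 0.06. Of the 166 tested contigs numbered next to a member, 8 (4.82%) were members, while members made up 1.5% of tested contigs. The other 158 changed by -0.14 at the median, and 34 of them (21.5%) were called lower, a share near the 22.5% of all tested contigs. Whether neighbouring numbers mark related sequences is not known from the files used here.

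The hybridisations were spread over 2 slides, each holding 4 control and 4 cyfluthrin arrays, and slide played no part in the rule. In the comparison of groups within slides, replicate 5 on slide 1 stood for the alike pair. All 103 members were lower in cyfluthrin arrays on both slides, as were 49.1% of tested contigs. That is in part set by the choice of members, whose mean fall covers both slides. The median change was -1.28 on slide 1 and -1.29 on slide 2. Single contigs ran from -3.87 to -0.74 on slide 1 and from -2.55 to -0.35 on slide 2.

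**Figure D4:**
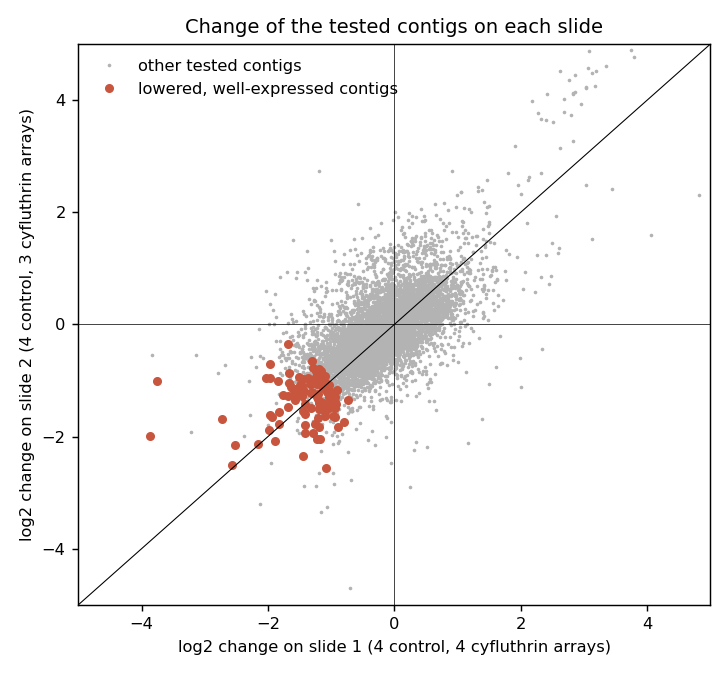
Log2 change (cyfluthrin minus control) of each tested contig on slide 1 (horizontal axis, 4 control and 4 cyfluthrin arrays) and on slide 2 (vertical axis, 4 control and 3 cyfluthrin arrays), with the line of equal change. All 103 lowered contigs, in red, lie below 0 on both axes; contig_356 and contig_6603 lie farthest to the left, at -3.87 and -3.75 on slide 1.

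The limma test for a treatment effect that differed between the slides called 0 of the 103 members (lowest adjusted p = 0.993) and 0% of tested contigs. The rule asked for separation of the groups over samples of both slides, which limits how far a member's fall can differ between them. The members' counts in this test are therefore in part set by their choice. At an unadjusted p under 0.05 the test found 2 members (1.94%, beside 4.09% of tested contigs and 2.96% of those at or above the array median). Contig_6603 was one, whose change was 2.75 log2 units less negative on slide 2 than on slide 1 (unadjusted p = 0.0134), and contig_74 the other, with a difference of -0.93 in the opposite sense (unadjusted p = 0.0442). Both are named after their values were seen. With replicate 6 in place of replicate 5 the unadjusted count was 3 (2.91%, beside 3.23% of tested contigs and 1.93% of those at or above the array median).

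The slides themselves, with group in the model, differed for 0 members at an adjusted p under 0.05 (limma, lowest adjusted p = 0.683) and for 0.0146% of tested contigs. At an unadjusted p under 0.05 the count was 13 (12.6%, beside 7.21% of tested contigs), or 11 (10.7%, beside 6.06%) with replicate 6. The median difference, slide 2 minus slide 1, was -0.21 log2 units over the members and -0.06 over all tested contigs. It was below 0 for 80 members (77.7%, beside 60.5%). Control replicate 7, the sample in which most members were high, was on slide 1, and its part in this difference was not tested.

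The size of the fall depended on how arrays were set to a common scale, while all 103 members were lower in cyfluthrin samples under each of the 7 ways tried. The median change was -1.26 with the 75th percentile, -1.20 with quantile normalization and in the value table, and -1.09 with median scaling. Normexp background correction before the 75th-percentile scaling gave -0.87, scaling to the E1A spike-in probes -0.78 and no scaling -0.56. These scalings also moved the median of all tested contigs, which was -0.16, -0.03 with quantile normalization, 0.01 with median scaling, -0.37 with normexp, 0.32 with E1A and 0.54 without scaling. Against those medians the members were lower in each case. A fall of at least 1 log2 unit was reached by 103 members under quantile normalization, 71 under median scaling, 27 with normexp, 26 with E1A and 14 without scaling. Among all 6852 tested contigs the counts were, in the same order, 174, 171, 40, 57 and 34. Under quantile normalization limma called 101 members lower, where 12.2% of tested contigs were. Under median scaling the figures were 100 and 10.6%, and against the E1A probes 66 and 2.2%.

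**Figure D5:**
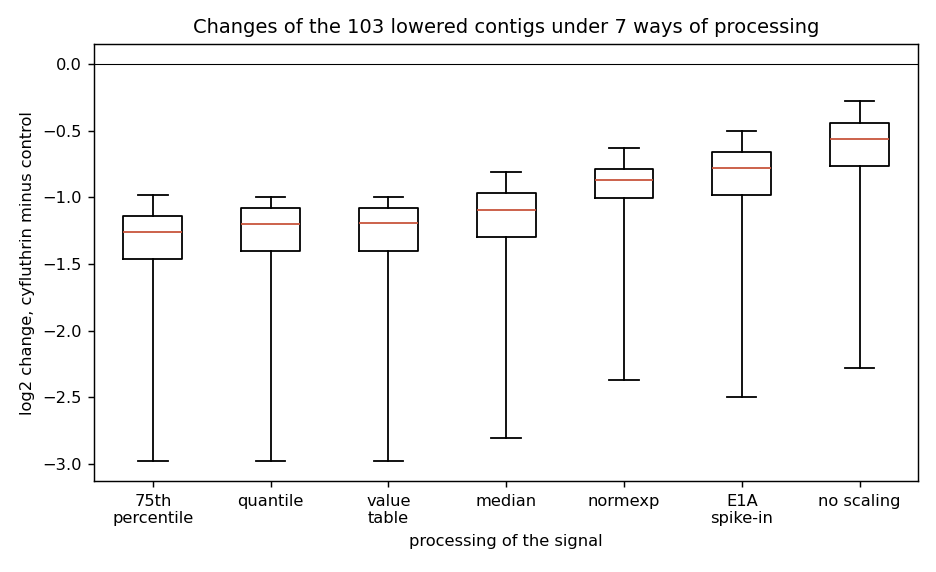
Log2 change (cyfluthrin minus control, vertical axis) of the 103 lowered contigs under 7 ways of processing the signal, with boxes for the quartiles, a red line for the median and whiskers to the lowest and highest contig. All whiskers end below 0, and the medians run from -1.26 with the 75th percentile to -0.56 without scaling.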

How the data were processed

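Whole-body RNA was measured on 16 one-colour Agilent arrays, 1 for each sample the labels name (2 of them, cyfluthrin replicates 5 and 6, may hold one RNA). The scanner's intensity values came from Agilent Feature Extraction, version 11.5.1.1 per the file headers and 9.1 per the submitters' processing notes. The deposited intensity is the background-subtracted, detrended processed signal, not scaled between arrays. The authors' deposited log2 value table was used for the rule. Its values were close to quantile-normalized signals centred on each probe, a scale inferred from the scanner files. Direction is that of expression. No source used here names other upstream steps.

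Of 15744 spots, 536 control spots were left out. Spots with an outlier flag were dropped, each array's 75th percentile was subtracted from its log2 signals, and the spots of a contig were averaged. Contigs were tested if 0.5 or more of their spots carried the flag for well above background on 8 or more arrays, which left out 1655. The number of arrays limits the precision.

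Groups were compared with limma 3.58.1 (lmFit, eBayes) under R 4.3.3. P-values were adjusted over 6852 contigs (Benjamini-Hochberg, threshold 0.05). Cyfluthrin replicates 5 and 6 were averaged. In fits with slide, position or replicate number, 1 of them stood for the pair. Reading used data.table in version 1.17.8, and plotting used matplotlib 3.10.9 in python 3.11.15. The fits were tested on simulated data.

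Members, tests and alternatives were chosen with earlier results of these data known. Contigs were named by rule, as no probe has a gene name: the 5 with the largest fall in the value table, the 3 with the highest control level, the 3 with the smallest SD relative to the fall, the 2 on each side of each limit, members past a test of slide or interaction (none), and at most 3 most like the contig of largest fall. Others named were chosen after their values were seen, as were the clusters and the neighbour counts. The gene lists drawn up for cell types could not be matched. Same-numbered replicates were checked for pairing: their deviations correlated between -0.67 and 0.47, without a common sign, and the main fit did not pair them. Whether the numbers pair samples by design is not known from the labels. Alternatives covered scaling, background correction, filters, outlier spots, the alike pair, replicate number, slide, column, variance model, the limits of the rule and each sample left out. E1A scaling used 7 of 10 E1A probes, those above background on all arrays. Normexp was run with an offset of 50. The alternatives without scaling, without disagreeing spots, and with outlier spots left out of the level were added after seeing the data.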

Additional observations from a re-analysis of the deposited data

Results flagged for a closer look

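In 30 sets of values, those of the named members and the sample medians in each group, 3 had 1 sample far from the others relative to the range of its group. About 1 in 20 independent, unselected sets would be flagged in this way. The sets here share their arrays and were chosen on the same values, and a high control helped a contig to be chosen. The counts of flagged sets are therefore a description and cannot be set against that rate. Contig_1158 read 4.31 in control replicate 4, with the next control at 2.02 and the lowest at 0.45, and its duplicate spots on that array lay 85.8-fold apart. Contig_1642 read 3.30 in control replicate 7, with the next control at 2.0 and the lowest at 1.29. Contig_1499 read 0.26 in control replicate 7, with the next control at -1.46 and the lowest at -2.57. Over the 206 sets of all members, 24 (11.7%) had such a sample. It was control replicate 7, on the high side, in 13 of them, cyfluthrin replicate 2 in 5 and control replicate 4 in 3.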

How the results depend on the processing

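No result changed direction under any alternative run, and the counts of 0 for slide and for its interaction with treatment were 0 throughout. The median change of the members moved beyond the spread between samples to -0.78 with E1A scaling, -0.87 with normexp and -0.56 without scaling. Limma called 101 members lower, where it called 22.5% of tested contigs lower. With E1A scaling it called 66 (beside 2.2% of tested contigs) and without scaling 37 (beside 0.715%). On slide 1 alone it called 0 members and 0% of tested contigs, with a lowest adjusted p of 0.103 over all of them, while 99 members and 17.3% of tested contigs were lower at an unadjusted p under 0.05. On slide 2 alone it called 78 (beside 9.4%). With a replicate block it called 93 (beside 10.6%) with replicate 5 and 99 (beside 10.7%) with replicate 6, with median changes of -1.29 and -1.33. With the column of the slide as a covariate it called 83 (beside 12.7%) and 77 (beside 7.75%). Column 3 held cyfluthrin replicates 2, 3, 7 and 8 and no control. Column and treatment were thus partly confounded, and those arrays carried no information on the size of the treatment effect in that fit. With replicate 5 standing for the pair, column 1 held only control replicates 1, 2 and 4, which then carried none either. Leaving out each sample gave 100 to 102 calls (beside 17.1% to 24% of tested contigs) and median changes between -1.35 and -1.18. The number of members by the rule was 57 with median-scaled values (56 of them among the 103) and 13 with E1A-scaled values (all 13 among them). With the 75th percentile it was 139 (96 shared), with the alike pair as 2 samples 109 (101 shared) and without disagreeing spots 102 (101 shared). It was 205 for a fall of at least 0.8 and 18 for one of at least 1.5. The causes were not tested. Replicates 5 and 6 were left out together, not singly. Contig_1158 was not called in any of these fits (adjusted p from 0.0641 to 0.574). The other 13 named members lost their call 31 times: 13 on slide 1 alone, 5 without scaling, 4 on slide 2 alone, and 3 each with E1A scaling (contig_796, contig_1642, contig_1499), the replicate block (contig_796 once, contig_1499 with either array) and the column (contig_6603 with either array, contig_8058 once).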
